A study of Homo sapiens with 2 samples.

Results

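NeuroD1 peaks in long non-coding RNA (lncRNA) genes were examined in IMR-32 cells. A peak was counted when at least 1 base of it overlapped a RefSeq gene of the lncRNA class and when it lay over 3 kb from the body of every protein-coding gene. This rule used positions only, and 436 of the 6183 peaks in the list met it, a share of 7.05% (95% exact Clopper-Pearson interval 6.43 to 7.72%, counting error only). They made up 27.0% of the 1615 peaks that lay over 3 kb from protein-coding genes. A further 651 peaks overlapped a lncRNA gene but lay within 3 kb of a protein-coding gene and were left out by the rule.

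IMR-32 is a neuroblastoma cell line with amplified MYCN, and its genotype was labelled WT with no further allele or treatment. The labels give 1 ChIP-seq library made with a NeuroD1 antibody and 1 input library made without antibody. No data of the input library were read here. Whether the deposited fold enrichments already use the input as their background was not checked. The supplementary ChIP methods name an H3K27Ac antibody, so the peaks are called NeuroD1 peaks here because their sample is labelled so. With 1 library of 1 cell line there was no replicate, and no difference below was tested across samples.

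NeuroD1 is a neurogenic transcription factor of the basic helix-loop-helix family that pairs with E proteins and binds the E-box, a short DNA motif written CANNTG. LncRNA genes give rise to transcripts without a long open reading frame, and some of them are the precursors from which microRNAs or small nucleolar RNAs are cut. Several lncRNA genes expressed in the nervous system carry neural microRNAs such as miR-9 and miR-137.

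Fold enrichment, the measure of strength used below, is the ChIP pileup at the summit of a peak plus 1, divided by the local background plus 1. The number of ChIP reads at a summit and the local background were solved from the deposited fold enrichment and −log10 p. The total number of reads in the library is unknown. Peaks in the list had a median of 17 reads at the summit and a range from 8 to 272, so most values below rest on few reads. Reads amplified by PCR are not independent molecules, and every interval below covers counting error alone.

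The sequences that the strongest promoter peaks lie on are shown first, because the position of the summit relative to the lncRNA start and to E-boxes is described further on. RefSeq promoter windows (GRCh38.p14, 250 bases before to 50 bases after an annotated start) are printed 5′ to 3′ on the strand of the lncRNA. Capitals mark every CANNTG motif. LINC02078, LOC105372249 and MIR9-1HG carry the 3 strongest peaks on a window. LOC107985379 and LOC124903565 carry the strongest peaks with the summit inside a window that holds more than 1 CAGATG or CATCTG. Among the listed neural and neuroblastoma lncRNA genes, MIR9-1HG and MIR137HG are those named as microRNA hosts that have a peak.
LINC02078, plus strand, chr17:79707016-79707315: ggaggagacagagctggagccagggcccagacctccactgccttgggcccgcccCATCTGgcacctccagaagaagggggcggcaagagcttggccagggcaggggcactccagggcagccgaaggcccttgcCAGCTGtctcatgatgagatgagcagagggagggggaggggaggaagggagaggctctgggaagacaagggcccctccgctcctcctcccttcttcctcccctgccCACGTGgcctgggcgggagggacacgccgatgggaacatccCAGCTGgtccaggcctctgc
LOC105372249, plus strand, chr19:4581565-4581864: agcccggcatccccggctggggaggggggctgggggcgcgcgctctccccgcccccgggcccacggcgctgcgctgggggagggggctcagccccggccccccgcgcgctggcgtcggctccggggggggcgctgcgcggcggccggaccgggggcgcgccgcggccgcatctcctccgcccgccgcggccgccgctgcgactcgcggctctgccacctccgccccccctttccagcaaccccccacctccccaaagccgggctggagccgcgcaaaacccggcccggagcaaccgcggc
MIR9-1HG, minus strand, chr1:156421720-156422019: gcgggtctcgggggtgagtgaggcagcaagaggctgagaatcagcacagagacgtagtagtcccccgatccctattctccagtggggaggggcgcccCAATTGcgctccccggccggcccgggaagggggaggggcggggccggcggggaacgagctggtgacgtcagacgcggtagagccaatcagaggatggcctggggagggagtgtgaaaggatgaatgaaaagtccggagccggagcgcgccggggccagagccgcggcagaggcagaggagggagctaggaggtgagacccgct
LOC107985379, plus strand, chr1:60280213-60280512: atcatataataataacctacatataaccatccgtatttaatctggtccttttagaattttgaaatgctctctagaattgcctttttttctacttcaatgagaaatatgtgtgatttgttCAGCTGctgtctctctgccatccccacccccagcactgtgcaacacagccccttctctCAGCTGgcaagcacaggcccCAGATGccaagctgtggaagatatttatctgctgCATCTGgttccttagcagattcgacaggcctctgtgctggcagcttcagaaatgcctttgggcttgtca
LOC124903565, plus strand, chr15:101162703-101163002: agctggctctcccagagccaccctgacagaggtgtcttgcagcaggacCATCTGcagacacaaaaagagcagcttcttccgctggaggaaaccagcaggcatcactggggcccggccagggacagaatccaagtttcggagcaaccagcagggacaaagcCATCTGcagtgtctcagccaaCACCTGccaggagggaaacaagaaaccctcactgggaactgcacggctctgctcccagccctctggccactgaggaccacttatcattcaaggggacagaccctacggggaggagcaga
MIR137HG, minus strand, chr1:98049644-98049943: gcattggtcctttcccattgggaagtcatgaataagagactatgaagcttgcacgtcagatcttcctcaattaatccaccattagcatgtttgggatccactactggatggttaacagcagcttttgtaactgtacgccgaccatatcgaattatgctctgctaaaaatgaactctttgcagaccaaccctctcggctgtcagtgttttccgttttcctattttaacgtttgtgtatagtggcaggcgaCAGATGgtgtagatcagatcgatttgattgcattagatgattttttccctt

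The strongest peak in a lncRNA gene lay in LOC107987043 on chromosome 9 (2241818 to 2242318). It had 92 reads at the summit against a background of 1.12, which gave a fold enrichment of 42.9 (34.7 to 52.5, from the exact Poisson interval of the reads), and it ranked 7 among all 6183 peaks. Its summit lay 594 bases downstream of the annotated start, and the nearest protein-coding gene was SMARCA2, an ATPase of a chromatin remodelling complex, at 48.2 kb. A second peak of LOC107987043 had a fold enrichment of 9.03.

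LINC02078 on chromosome 17 held the next strongest peak, with 121 reads, a background of 2.92 and a fold enrichment of 30.5 (25.4 to 36.4). This peak had the highest −log10 q of the 436, at 136. It spanned the start of LINC02078, with its summit 264 bases upstream of it and so just outside the printed window, and it also overlapped the microRNA gene MIR4739. The printed window of LINC02078 holds 4 E-boxes, CATCTG at bases 55 to 60, CAGCTG at 134 to 139 and at 281 to 286, and CACGTG at 240 to 245.

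The peak in LOC124904771 on chromosome 19 followed with 68 reads and a fold enrichment of 29.2 (22.8 to 36.9), and the peak in LOC124904017 on chromosome 17 had 70 reads and 21.7 (17 to 27.4). Intervals of neighbours in this order overlapped, so their order is not firm. JAKMIP1-DT, a transcript named for its position divergent from JAKMIP1, had 39 reads and a fold enrichment of 19.3, and its peak lay 21.3 kb from JAKMIP1.

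**Figure D1:**
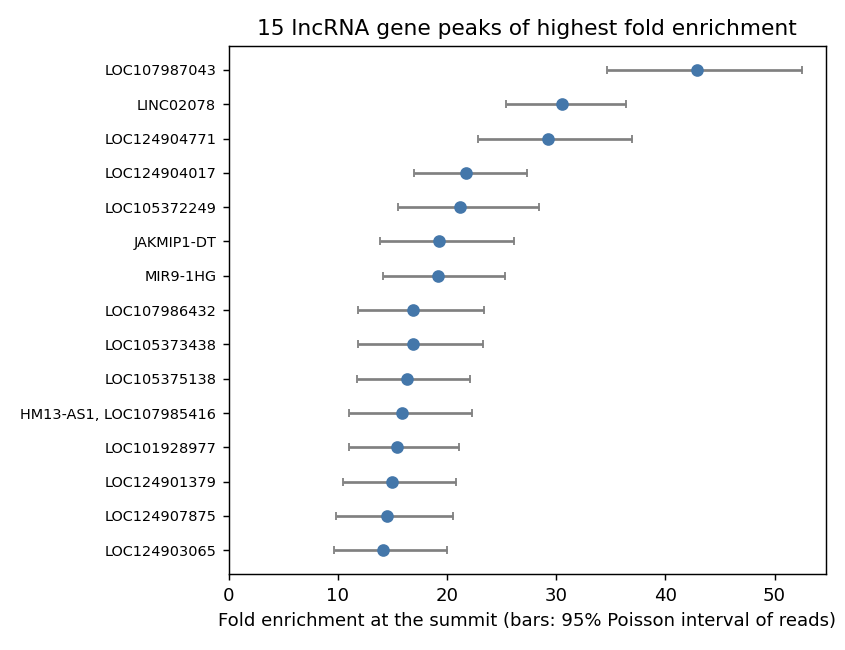
Fold enrichment at the summit (x axis, ratio) of the 15 strongest peaks in lncRNA genes, named by gene (y axis), with bars for the 95% exact Poisson interval of the ChIP reads. The values run from 42.9 down to 14.1, and the bars of neighbours overlap.

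The other peaks among the 15 strongest had fold enrichments from 14.1 to 21.2. The peak of LOC105373438 on chromosome 2 (16.9, 35 reads) lay 874 kb from the nearest protein-coding gene, TRIB2, and that of LOC124901379 on chromosome 6 (15, 33 reads) lay 292 kb from MARCKS, which encodes a substrate of protein kinase C. Both are examples of strong peaks far from any coding gene. The peak of LOC107986432 on chromosome 5 had a fold enrichment of 16.9, that of LOC105375138 on chromosome 7 had 16.3 and that of LOC101928977 on chromosome 1 had 15.5. A single peak of 15.9 overlapped both HM13-AS1 and LOC107985416 on chromosome 20, with its summit 215 bases downstream of the start of LOC107985416.

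The peak at the start of LOC124903065 on chromosome 12 had a fold enrichment of 14.1. LOC124907875 on chromosome 2 had 14.5, but this peak also overlapped the pseudogene WASH2P, a member of a family with near-identical copies, so its placement is uncertain. Just outside the 15, the peak of LOC124903515 on chromosome 15 had 14.1 as well.

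Most peaks in lncRNA genes were weaker than these. Their median fold enrichment was 6.75 (95% order-statistic interval 6.54 to 6.85), with quartiles of 5.55 and 8.20 and a range from 1.98 to 42.9. Peaks within 3 kb of protein-coding genes had a median of 6.79 (6.75 to 6.91), and peaks over 3 kb from any gene had 6.87 (6.75 to 7.19). The medians therefore lay close together, with overlapping intervals.

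The upper end differed more than the middle. A fold enrichment of 10 or more was reached by 15.3% of all peaks and by 46 of the 436 peaks in lncRNA genes, a share of 10.6% (7.83 to 13.8%). The share was 15.4% (14.4 to 16.5%) within 3 kb of protein-coding genes and 16% (13.8 to 18.4%) over 3 kb from any gene. For the 172 other peaks, far from coding genes but within 3 kb of some other gene, it was 19.8% (14.1 to 26.5%). The interval of the lncRNA share ended below those of the peaks near coding genes and of the 172 others. It met that of the peaks far from any gene at 13.8%. Without the peaks on a raised background described next, the lncRNA share was 11.1% (8.25 to 14.5%) and that near coding genes 15.6% (14.5 to 16.7%). That over 3 kb from any gene was 16.6% (14.3 to 19.1%), and that of the other class 19.9% (14.2 to 26.7%). These intervals met or overlapped, and the peaks of 1 library are not replicates, so the difference was not tested.

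**Figure D2:**
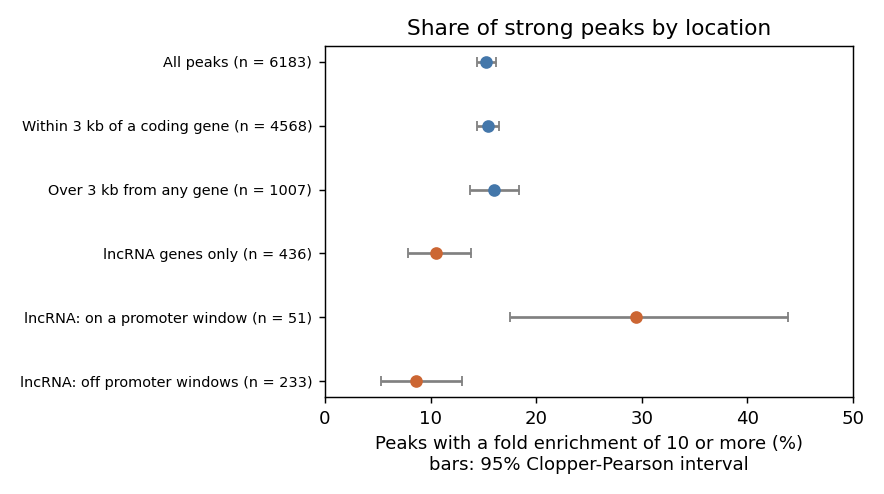
Share of peaks with a fold enrichment of 10 or more (x axis, percent) by location (y axis), with 95% exact Clopper-Pearson intervals as bars. Peaks in lncRNA genes sit at 10.6% against 15.3% of all peaks, and those on a lncRNA promoter window sit at 29.4% against 8.58% off the windows. The 172 other peaks within 3 kb of some other gene are not drawn.

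A local background above 10 set 22 of the 436 peaks apart. Among all 6183 peaks 112 had such a background, so it was not particular to lncRNA genes. Of those 112, 52 lay within 3 kb of protein-coding genes and 37 over 3 kb from any gene. All 22 lay on chromosome 2, their backgrounds ran from 35.8 to 67.0, and no other peak among the 436 had a background above 6.0. They had 79 to 272 reads at the summit but a median fold enrichment of only 2.63 and a highest value of 6.73. The other 414 peaks had 9 to 121 reads and fold enrichments from 3.36 to 42.9, so the 22 paired high read counts with low ratios. The cause of the raised background was not tested. The remaining 414 peaks had a median fold enrichment of 6.78 (6.75 to 7.12).

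**Figure D3:**
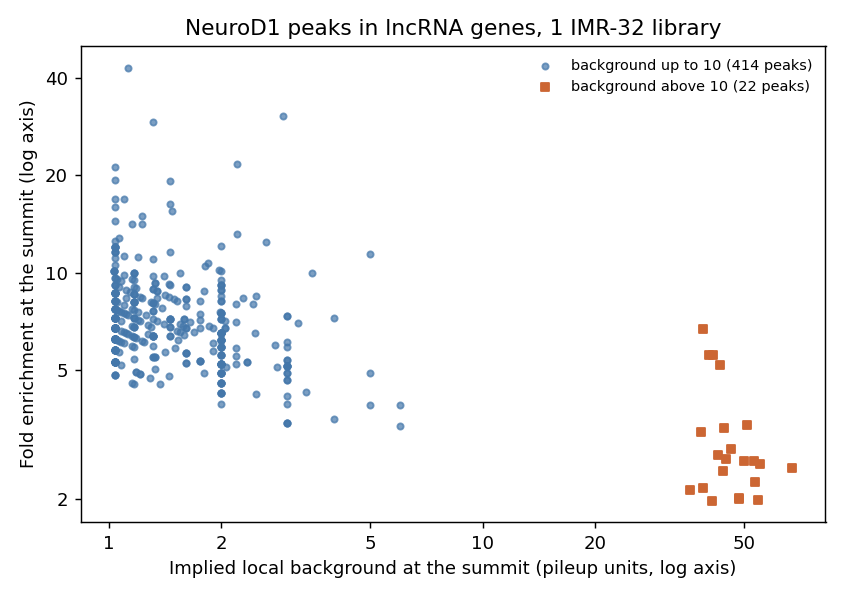
Fold enrichment at the summit (y axis, log scale) against the implied local background (x axis, pileup units, log scale) for the 436 peaks in lncRNA genes. The 22 peaks with a background above 10, all on chromosome 2, form a group at the right with fold enrichments of 1.98 to 6.73.

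These 22 peaks fell in lncRNA genes between MEIS1, which encodes a homeodomain factor, and ETAA1, which encodes a replication stress protein, save for 1 peak of 2.13 in LOC107985891 that lay 39.7 kb beyond ETAA1. LINC01798 held 6 of them, with fold enrichments from 1.99 to 3.39 and 100 to 178 reads, at 3.66 to 102 kb from MEIS1. LINC01799 held 3 (2.44, 2.86 and 3.33), with backgrounds of 44.0 to 46.0. LOC105374785 held 4, of which the strongest pair reached 5.57 with 239 reads and 5.19 with 232 reads.

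LINC01828 held 7 peaks, more than any other lncRNA gene. The peak at chromosome 2, 67267306 to 67268130, had 272 reads on a background of 38.8 and a fold enrichment of 6.73, and another had 234 reads and 5.58. The other 5 ranged from 2.17 to 3.22. By −log10 q, 4 of the 7 peaks lay between 16.4 and 23.7, whereas the strongest pair reached 120 and 87.1. Of its 7 peaks, 4 also overlapped LINC01829 or LOC101927661, so the counts of these 3 genes are not independent.

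Peaks were spread thinly over lncRNA genes. They overlapped 401 lncRNA genes, 3.13% of the 12826 with some sequence over 3 kb from protein-coding genes. A single peak was found in 351 genes, 2 peaks in 35 and 3 or more in 15. Genes with a peak had a median length of 40.1 kb against 11.6 kb for the 12826, and their own lengths ran up to 1375 kb. Of the 15 genes with 3 or more peaks, 6 had all of their peaks on the raised background of chromosome 2, and the other 9 had none there.

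**Figure D4:**
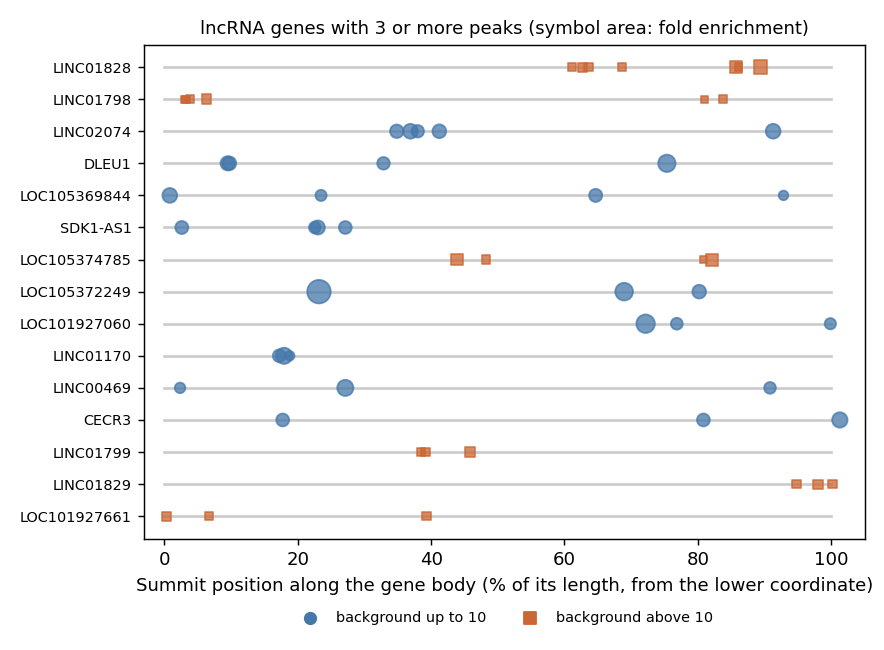
Summit positions along the 15 lncRNA genes with 3 or more peaks (x axis, percent of gene length from the lower coordinate; y axis, gene), with symbol area scaled to fold enrichment and squares for peaks with a background above 10. LINC01828 has 7 squares, LINC02074 has 5 circles and the largest symbol, 21.2, is in LOC105372249.

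LINC02074 on chromosome 17 held 5 peaks, the most on an ordinary background. Their fold enrichments were 6.99, 8.45, 5.98, 7.26 and 8.38 in genomic order, with 29, 29, 22, 36 and 27 reads. The values differed little from each other beside their counting error. The first 4 summits lay within a stretch from 17.7 to 20.9 kb from the lower end of the 50.8 kb gene, and the last lay at 46.4 kb.

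DLEU1 on chromosome 13, a lncRNA gene of a region often deleted in lymphocytic leukaemia, held 4 peaks of 7.71, 7.23, 6.09 and 11.6 over its 446 kb. The peak of 7.71, with 15 reads, also overlapped DLEU2, the host of miR-15a and miR-16-1, with its summit 1058 bases from a start. The peak of 11.6, with 28 reads, lay 292 kb from DLEU7, the nearest protein-coding gene. LOC105369844 on chromosome 12 held 4 peaks (8.42, 4.82, 6.62 and 3.53) spread over 311 kb, and SDK1-AS1 on chromosome 7 held 4 (6.51, 5.23, 7.63 and 6.30), of which 3 had summits 24.5 to 29.4 kb from its lower end.

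LOC105372249 on chromosome 19 had the most peaks for its size among the 15 genes with 3 or more peaks, 3 in 5.50 kb. Their fold enrichments were 21.2 (43 reads), 12 (24 reads) and 7.24 (15 reads). The peaks of 21.2 and 12 lay on separate annotated starts, with summits 22 and 19 bases downstream, and SEMA6B, which encodes a semaphorin, was 22.0 kb away. The window printed for the peak of 21.2 holds no CANNTG, and it is rich in G and C at 83.3%.

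LOC101927060 on chromosome 17 held 3 peaks of 13.2, 5.40 and 4.91, and the one of 13.2 had 42 reads. LINC01170 on chromosome 5 held 3 peaks of 6.27, 10.1 and 3.44 with summits 65.2 to 71.2 kb from its lower end, at 506 to 509 kb from protein-coding genes. Thus the genes with several peaks included both tight groups and peaks spread along long genes. Within 10 kb of another such peak lay 86 of the 436, in 37 groups. These include the groups of LINC01798, LINC01799, LOC105374785 and LINC01828 on the raised background of chromosome 2. The share of close peaks among all peaks was not computed, so no trait of lncRNA genes is read from this count.

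The peaks came from 22 chromosomes. Chromosome 2 had 53, of which 31 were left without those on the raised background, and chromosome 1 had 46. As a share of the peaks on a chromosome, they were highest on chromosome 13 (13.5%, 14 of 104) and chromosome 5 (11.5%, 30 of 260) and low on chromosome 19 (2.75%, 10 of 364). None of the 27 peaks on chromosome X met the rule.

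The distance to the nearest protein-coding gene had a median of 59.9 kb and a maximum of 1411 kb. Of the 436 peaks, 66 lay at 3 to 10 kb, 133 at 10 to 50 kb, 131 at 50 to 200 kb and 106 at over 200 kb. Median fold enrichment in these classes was 6.75, 6.79, 6.77 and 6.54. The share at 10 or more was 12.1% (5.38 to 22.5%), 15% (9.43 to 22.3%), 6.11% (2.67 to 11.7%) and 9.43% (4.62 to 16.7%), and these intervals overlapped, so no order by distance is read from them.

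Summits lay inside the lncRNA gene for 405 peaks and just beyond its end for 31. The median distance to the nearest gene end was 5964 bases, with 108 summits within 1 kb, 145 at 1 to 10 kb and 183 at over 10 kb. Median fold enrichment was 6.75 in each of these classes. The share at 10 or more was 14.8% (8.71 to 22.9%) within 1 kb, 6.90% (3.36 to 12.3%) at 1 to 10 kb and 10.9% (6.8 to 16.4%) further in.

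Against gene length, summits were dense near the ends. Sequence within 1 kb of an end made up 5.94% of lncRNA gene length over 3 kb from protein-coding genes but held 18.3% (14.6 to 22.4%) of the 405 summits inside. Sequence over 10 kb from an end made up 63.0% of the length and held 45.7% (40.8 to 50.7%). In summits per Mb, with exact Poisson intervals, this was 3.53 (2.77 to 4.43) near the ends against 0.832 (0.717 to 0.961) deep inside.

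Over whole territories, lncRNA genes had 1.15 summits per Mb (1.04 to 1.26, 405 summits in 353 Mb). Sequence over 3 kb from any gene had 0.856 (0.804 to 0.910), and protein-coding genes with 3 kb on each side had 3.39 (3.30 to 3.49). LncRNA genes thus lay between the others, with intervals that did not overlap. The density of 3.53 near lncRNA ends is for the ends only, whereas 3.39 is averaged over whole protein-coding genes. A density for the ends of protein-coding genes was not computed, so lncRNA ends are not ranked against them. The territory far from genes includes unsequenced gaps, which lowers its density.

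RefSeq gave a start for lncRNA genes of 284 of the 436 peaks. Of these, 51 overlapped a promoter window, 18.0% (13.7 to 22.9%), on 59 windows of 54 genes. Summits lay upstream of the start for 33 and downstream for 18, at a median of 64 bases from it.

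Peaks on a promoter window were more often strong. A fold enrichment of 10 or more was found for 15 of the 51, 29.4% (17.5 to 43.8%), and for 20 of the 233 off the windows, 8.58% (5.32 to 12.9%), and these intervals did not overlap. The medians were closer, at 6.83 (6.27 to 9.05) and 6.75 (6.48 to 6.87). Median widths were 259 and 207 bases. Any base of overlap counted, so a wider peak meets a window more easily, and the part of width in the difference was not tested. Without the peaks on a raised background, the shares were 30.6% and 8.97%. A like share for promoter windows of protein-coding genes was not computed, so no trait of lncRNA genes is read from this difference.

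CANNTG was present in 37 of the 59 windows, 62.7% (49.1 to 75%), against 68.7% of all RefSeq promoter windows, 74.9% of all lncRNA windows and 56.7% (54.9 to 58.5%) of windows under any peak. Both strands were searched, which for a palindromic pattern gives the same matches. CAGATG or CATCTG, the same motif on either strand and one kind of CANNTG, was in 15 windows, 25.4% (15 to 38.4%), against 14.7% of all windows, 19% of lncRNA windows and 8.70% of windows under any peak. CAGCTG, another kind of CANNTG, was in 23.7% (13.6 to 36.6%) against 17.9%, 17.8% and 18.5%. The 59 windows belong to 51 peaks and some overlap each other, so they are not independent, as the intervals assume. Counted by peak, 33 of the 51 had a window with CANNTG, 14 one with CAGATG or CATCTG and 11 one with CAGCTG. Windows under lncRNA peaks had a median G and C content of 64.0%, against 58.7% for all windows and 50% for all lncRNA windows. Shares of motifs move with base composition, and its part in these differences was not tested.

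The summit lay inside the window for 45 of the 59, and 26 of these held a CANNTG, 17 with the centre of one within 50 bases of the summit. How often a random position lies this close to a CANNTG was not computed, so no nearness of summits to motifs is read from these counts. Windows that overlap under the same peak can count the same motif more than once. In LOC107985379 (fold enrichment 10.7, 30 reads) the summit was at base 177 of the printed window, next to the CAGCTG at bases 178 to 183. In LOC124903565 (9.80, 23 reads) it was at base 153, before the CATCTG at 161 to 166. These matches describe the letters of the windows and not bound sites.

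The microRNA host MIR9-1HG on chromosome 1 had a peak of 19.1 (14.2 to 25.3) with 47 reads, whose summit lay 43 bases upstream of an annotated start, 36.4 kb from RHBG. The summit was at base 208 of its window, and the only E-box there, CAATTG, was at bases 98 to 103. MIR137HG had a peak of 9.17 (5.90 to 13.7) with 22 reads and a summit 26 bases upstream of its start, at base 225, before the CAGATG at bases 250 to 255. Both peaks thus sat at annotated starts of hosts of neural microRNAs. That of MIR9-1HG is a start inside the gene body, with the summit 7736 bases from the nearest gene end. The peak of MIR9-1HG was the stronger, with intervals that did not overlap. The other listed hosts of miR-9 and miR-124, namely MIR9-2HG, MIR9-3HG, MIR124-1HG and MIR124-2HG, had no peak. MIRLET7A1HG, host of let-7 microRNAs that act against growth programmes, had 2 peaks, 8.15 with the summit 722 bases downstream of a start and 6.36 with the summit 188 bases upstream. The main mature microRNAs of MIR9-1HG, MIR137HG and MIRLET7A1HG are shown with their seeds, bases 2 to 8, in capitals, from RefSeq. Among them, let-7a, let-7f and let-7d share the seed.
miR-9-5p: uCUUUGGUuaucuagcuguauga
miR-137-3p: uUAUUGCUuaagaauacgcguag
let-7a-5p: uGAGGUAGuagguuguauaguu
let-7f-5p: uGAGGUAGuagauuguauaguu
let-7d-5p: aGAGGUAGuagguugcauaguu

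By type of gene name, microRNA hosts held a peak in 8 of 72 genes, 11.1% (4.92 to 20.7%), and small nucleolar RNA hosts in 3 of 18, 16.7% (3.58 to 41.4%). The share was 4.11% of genes named LINC (91 of 2214), 3.08% of antisense genes (23 of 747), 2.81% of genes named LOC (247 of 8790) and 2.01% of divergent transcripts (8 of 399). The intervals of both host types are wide because the numbers are small. Peaks of the 3 small nucleolar RNA hosts lay at their starts and were weak, with SNHG5 at 6.34, SNHG26 at 5.23 and SNHG16 at 3.93. The other microRNA hosts had values from 4.91 in MIR23AHG, host of miR-23a, miR-27a and miR-24, to 8.20 in MIR548XHG. The divergent transcripts had the highest median of these types, 8.13 (6.79 to 12.1) over 9 peaks. This interval overlapped those of genes named LOC (6.75 to 7.23), antisense genes (5.89 to 7.71) and microRNA hosts (6.27 to 9.17). It lay just above that of genes named LINC (5.79 to 6.75), so the order of types is not firm. Of the 114 LINC peaks, 17 lay on the raised background of chromosome 2. Without those, the LINC median was 6.56 in place of 6.27.

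Peaks overlapped a microRNA gene itself in 2 cases. Besides MIR4739 in LINC02078, a weak peak of 4.83 with 9 reads in LOC124903896 on chromosome 17 overlapped MIR132, a microRNA gene known for its induction by neuronal activity. Of 46 listed neural, neuroblastoma and widely studied lncRNA genes, 41 were found in RefSeq and 4 held a peak over 3 kb from protein-coding genes, namely MIR9-1HG, MIR137HG, DLEU2 and SNHG16. Over all lncRNA genes with sequence over 3 kb from protein-coding genes the share with such a peak was 3.13% (401 of 12826), and the listed genes were not tested against it. The 41 listed genes were not limited to those with such sequence, so the bases of these counts are unlike.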

How the data were processed

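The authors called peaks for 1 NeuroD1 ChIP library, and the submitters' processing notes name BWA 0.7.17, MACS2 2.2.7 and hg38, although the peak names carry MACS3. They deposited for each peak the fold enrichment at the summit (a ratio, with 1 added to pileup and background), the −log10 p and −log10 q, and a score. The deposited score equals the −log10 q times 10, cut to a whole number, in 99.984% of rows and was not used. The last deposited column, a second score, was not used either.

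Genes, promoter windows and microRNAs came from RefSeq tables of GRCh38.p14. These give no exons, so exon and intron are not stated, and 11462 of 18303 lncRNA genes have a promoter window. The weight of 1 read, 0.9801, was found from the list itself on a grid from 0.9 to 1.05. With it, reads and background were solved by the Poisson formula of MACS, which gave back the deposited −log10 p within 0.0018. In a trial on 1000 simulated peaks, this step recovered the read number for 100.0%. No genome sequence was used, so motifs were counted in promoter windows only.

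There was no test, since there was 1 library. Values are given with 95% exact Clopper-Pearson, Poisson or order-statistic intervals. The members and lists were chosen with earlier results of these data known. Named are the genes of the 15 strongest peaks by fold enrichment, the 10 genes with the most peaks, the genes of the 5 peaks with the highest −log10 q and the listed genes with a peak. The listed miR-9 and miR-124 hosts without a peak are named as well. LINC01799, LINC01829, LOC101927661, LOC107985891, LOC107985379, LOC124903565, LOC124903515, LOC124903896 and the hosts MIRLET7A1HG, MIR548XHG, MIR23AHG, SNHG5 and SNHG26 were named after their values were seen, as were the genes shown only in the plot of genes with 3 or more peaks. The windows to print were chosen likewise. The alternatives were stricter peak thresholds, the summit in place of any base, other distances from coding genes, other gene types left out, raised backgrounds left out and other ranks. The work ran in Python 3.11.15 with scipy 1.17.1, numpy 2.4.6 and pandas 2.3.3, and the plots were drawn with matplotlib 3.10.9.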

Additional observations from a re-analysis of the deposited data

How the results depend on the processing

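For the number, share of all peaks, number of genes, median fold enrichment, share at a fold enrichment of 10 or more and share of summits within 1 kb of a gene end, 38 of 42 alternatives stayed within the limits set for a like value. The median fold enrichment was 7.23 when peaks under a −log10 q of 5 were dropped and 7.12 when those under 5 in fold enrichment were, since both drop weak peaks. The share of summits within 1 kb of an end was 18.3% with the summit inside the gene, since those beyond an end drop out. The share of all peaks was 5.98% at over 10 kb from coding genes. Ranked by −log10 q, 9 of the 15 strongest peaks were shared with the ranking by fold enrichment. By peaks per 100 kb, LINC01828 ranked 10 among the 15 genes with 3 or more peaks, and 9 such genes were left without backgrounds above 10, an alternative chosen after seeing the data. Of the listed genes, 8 had any peak, whatever its distance from coding genes. Without raised backgrounds, lncRNA genes had 1.09 summits per Mb. No paired analysis was possible because there was 1 ChIP library. With a median of 17 reads at a summit, differences between single weak peaks were not detectable at this depth.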

Other observations

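Among the listed lncRNA genes, 4 had peaks that lay within 3 kb of a protein-coding gene and so were left out above. The peak of MEIS1-AS3, antisense to the homeobox gene MEIS1, had a fold enrichment of 9.17 and lay 1470 bases from a protein-coding gene. SNHG7, a small nucleolar RNA host, had 8.93, and DLX6-AS1, a lncRNA gene beside homeobox genes of forebrain interneurons, had 5.79 with a gap of 17 bases. MYCNOS, antisense to MYCN, had 2 peaks, the higher at 4.46 on a background of 43.8, so it too had many reads and a low ratio, as the peaks in lncRNA genes between MEIS1 and ETAA1 did.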
